A study of Mus musculus with 6 samples.

Results

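The genes described here are 42 genes of the cell cycle, chosen by symbol from the 23997 genes of the expression table of the mouse ductus arteriosus (DA), the vessel that joins the pulmonary artery to the aorta before birth. They comprise 8 genes of G1 and the step from G1 to S phase, 2 inhibitors of cyclin-dependent kinases (CDKs), 14 genes of DNA replication, and 18 mitotic genes. The rule uses symbols and no measured value, and all 42 symbols were found in the table.

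A cell that divides passes through G1, copies its DNA in S phase, and separates the copies in mitosis. D and E cyclins with their CDKs inactivate the retinoblastoma protein in G1, which frees E2F transcription factors to switch on the genes of replication, and the genes of mitosis are switched on later by the MuvB complex joined to B-Myb and FoxM1. CDK inhibitors such as p21 and p27 hold cells in G1, and a quiescent tissue has low levels of both replication and mitotic transcripts. The media of the fetal DA consists of smooth muscle cells (SMCs), which still divide in the fetus.

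Bulk RNA-Seq was carried out on whole DA taken at E17.5 from mice of the C57BL/6 strain, with 3 wild-type (WT) libraries and 3 from the genotype *Prdm6 fl/fl SM22-Cre* (KO in the following). In the KO both copies of *Prdm6*, which encodes a histone methyltransferase, are floxed, and the Cre that removes the floxed part is driven by the SM22 promoter, which is active in SMCs. In which cells Cre acted was not measured here. Which part of *Prdm6* is floxed, and whether the WT embryos carried *SM22-Cre*, is not given in the sources used here. The study also stained the DA for Ki67, the product of *Mki67*, and counted positive cells in the smooth muscle layer. The comparison made here is whether the transcripts of proliferation differ between WT and KO at the same age. RNA of whole DA does not assign these transcripts to SMCs or to other cells, so it is not the same measure.

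Values are FPKM (fragments mapped to a gene, scaled to transcript length and to all mapped fragments), given in the order of libraries 0, 1, and 2 of each group. The depth of the libraries is unknown. A search within a fixed range, based on the steps between low values, gave 0.927 to 1.19 times that of WT 1. This estimate rested on few genes, such as 6 of 89 compared for WT 2 and 17 of 160 for WT 0, and cannot settle the depth. An FPKM of exactly 0 can be a failed estimate, and between 131 and 1457 of the 12955 genes tested were listed at 0 in a library, with WT 2 at the upper end. The libraries differed in ways that the genotypes do not explain. KO 0 held both *Xist*, made from the inactive X chromosome, at 81.0 FPKM and the Y chromosome transcript *Ddx3y* at 26.4 FPKM. *Xist* was at 67.0 FPKM in WT 0 and 82.8 FPKM in KO 1, with *Ddx3y* at 0 and 0.383 FPKM. In WT 1, WT 2, and KO 2 *Ddx3y* was at 24.0, 23.4, and 20.1 FPKM, with *Xist* near 0. Sex thus differed between libraries within both groups, and KO 0 could not be assigned to 1 sex. Whether KO 0 holds RNA of more than 1 embryo was not tested. The summed FPKM of 10 heart muscle markers was 1264 in WT 1 and 1344 in KO 2 and at most 548 in the other libraries. *Prdm6* itself was at 41.7, 48.4, and 19.8 FPKM in WT and 48.6, 27.1, and 15.4 FPKM in KO (log2 fold change -0.32, standard error 0.48, adjusted p = 0.833 from limma), so that its level does not check the labels. SMC markers were abundant in all libraries, with a summed FPKM of 9 markers of 5707, 2858, and 2473 in WT and 2386, 1789, and 913 in KO. The sum was lower in each KO library than in any WT library. Of the 9 markers, 5 were lower without overlap between the groups, against 7.84% of all genes tested. In bulk tissue, fewer SMCs and less RNA per SMC cannot be told apart.

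Cell cycle transcripts were abundant in the DA of both groups. All 42 genes had a mean of at least 1 FPKM, the minimum for testing, and 35 had a mean of at least 10 FPKM, a level reached by 48.8% of the genes tested. *Mki67*, which encodes the Ki67 antigen carried by cycling cells, had the highest mean of the 42 and ranked 268th of 12955 genes. Its FPKM was 195, 187, and 137 in WT and 201, 162, and 212 in KO. The lowest value was in WT 2, and the groups overlapped. The mean was 173 ± 31.6 FPKM in WT and 192 ± 26.1 FPKM in KO (SD, n = 3 each). The log2 fold change of KO over WT, taken on log2(FPKM + 0.1) with limma, was 0.15 (standard error 0.20, 95% interval -0.31 to 0.62, adjusted p = 0.812). This scale understates the change of weakly expressed genes with values above 0, whereas a value listed at 0 can enlarge it, by an amount that depends on the pseudocount.

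**Figure D1:**
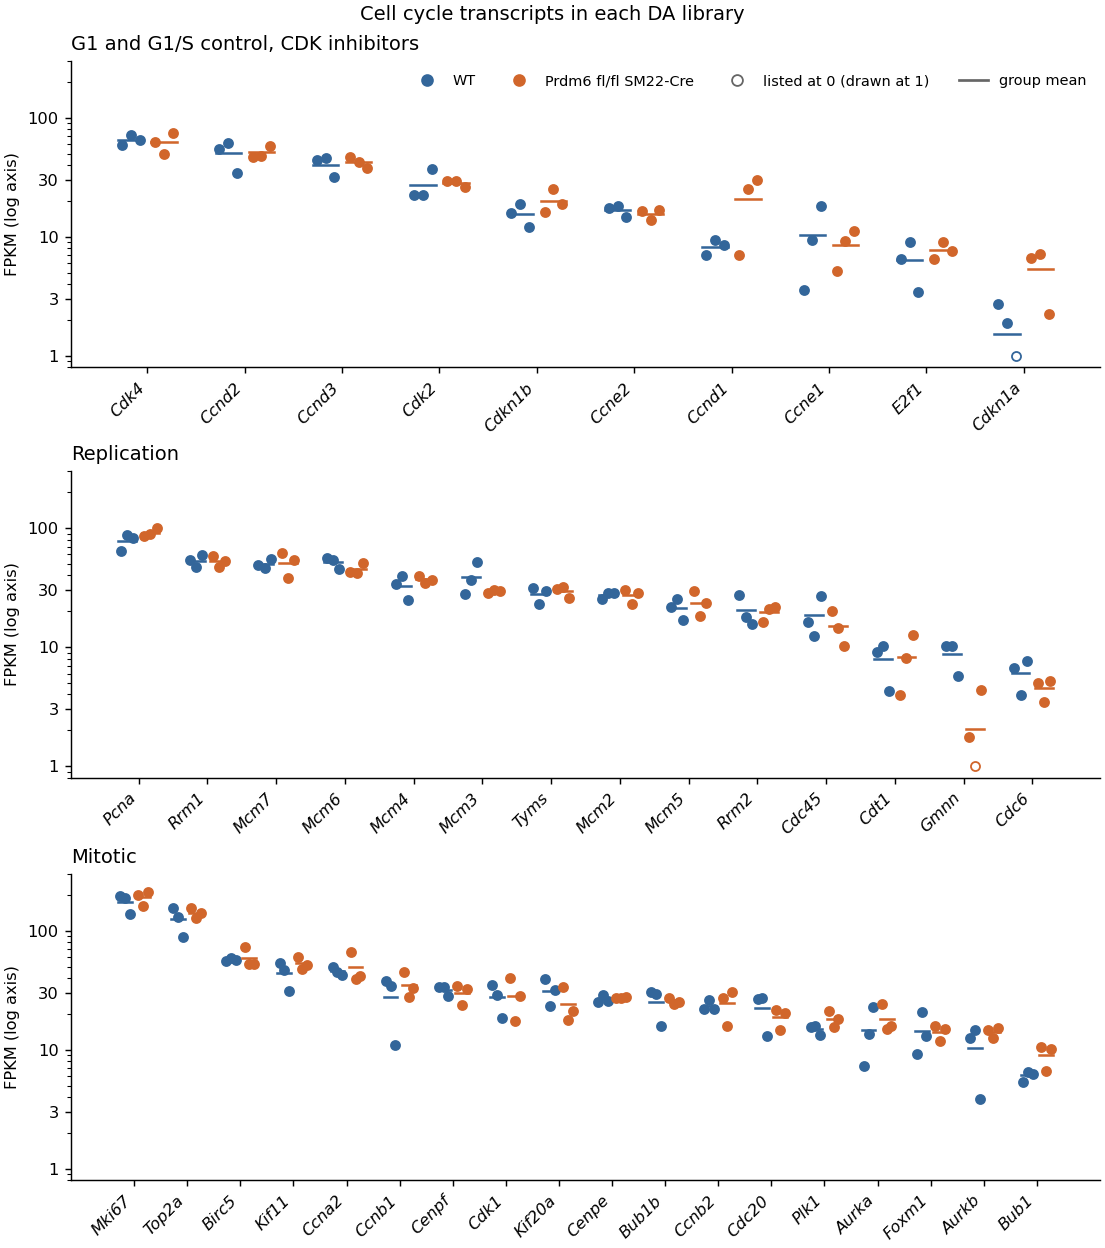
FPKM of the 42 genes (log axis) in the 3 WT libraries (blue) and the 3 *Prdm6 fl/fl SM22-Cre* libraries (orange), ordered within each role by mean level, with bars at the group means and open circles for values listed at 0. The points of the groups overlap for 40 genes, with *Mki67* between 137 and 212 FPKM, whereas *Gmnn* is lower and *Bub1* is higher in each orange point than in any blue point.

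Of the 42 genes, 0 had an adjusted p under 0.05 in limma, where the background over all genes tested was 0.00772% (1 of 12955 genes). *Gmnn* came closest, with an adjusted p of 0.591. Before adjustment, 1 of the 42 had a p under 0.05 (2.38%, again *Gmnn*), against 8.28% of all genes tested. The groups did not overlap for 1 gene that was lower in KO, with a background of 7.84%, and for 1 gene that was higher, with a background of 8.21%. The first is *Gmnn* and the second is *Bub1*. The labels do not say whether the libraries came from separate embryos, so p values measure the spread between these libraries.

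The median absolute log2 fold change was 0.15 for the 42 genes and 0.39 for all genes tested, with a median standard error of 0.25 against 0.41. The 42 genes are also more abundant than most, as given above, and the part of abundance in these figures was not tested. For 29 of the 42 genes (69.0%) the 95% interval lay within a log2 change of 1 in either direction, as it did for 30.4% of all genes, so that larger changes of these genes lie outside their intervals. The fold change itself was beyond 1 for *Ccnd1*, *Cdkn1a*, and *Gmnn* (7.14%, against 19.6% of all genes). Relative to 0, 28 genes had a positive and 14 a negative log2 fold change, against 7207 and 5748 of all genes tested. Their median of 0.056 compares with a median of 0.072 for all genes.

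**Figure D2:**
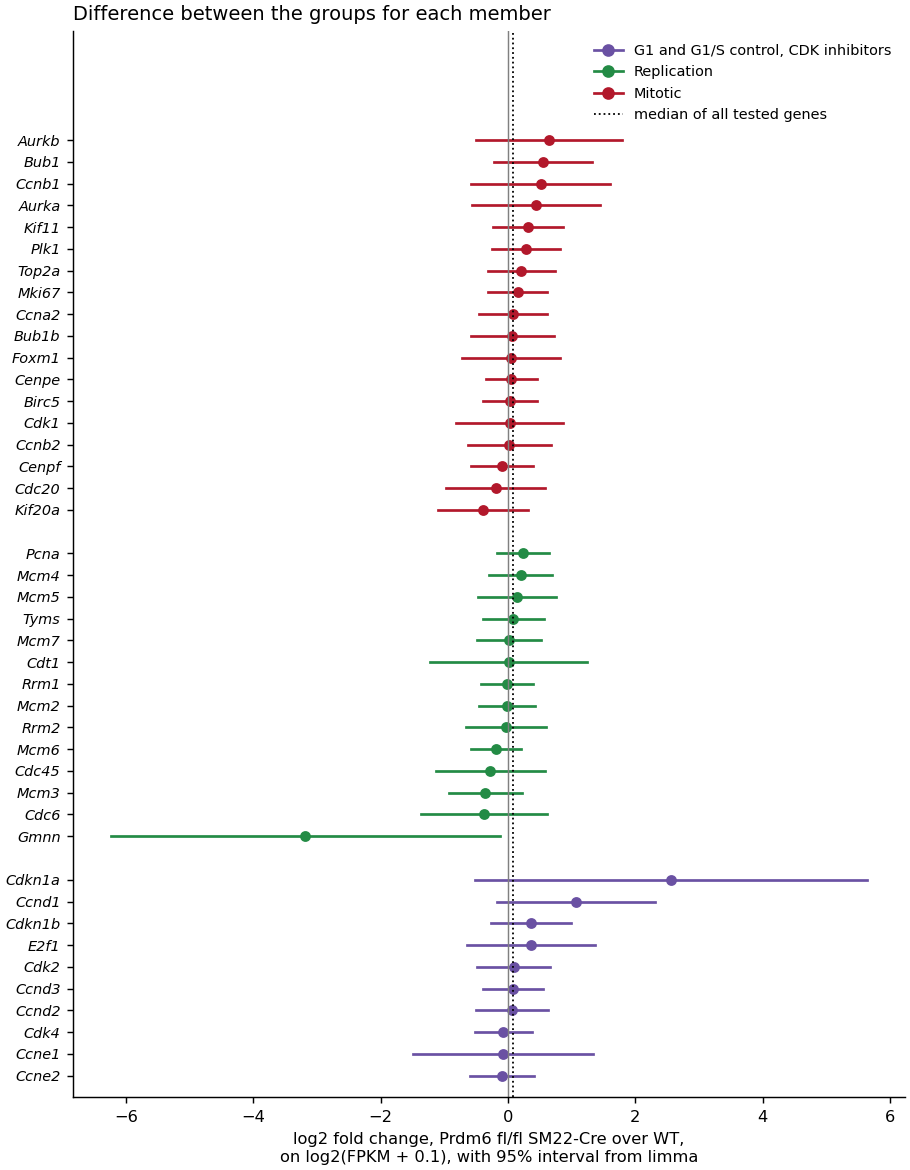
Log2 fold change of each gene, *Prdm6 fl/fl SM22-Cre* over WT, on the log2(FPKM + 0.1) scale (points), with the 95% interval from limma (lines), colored by role. The dotted line is the median of all tested genes at 0.072. Most points lie close to it, the widest intervals belong to *Gmnn* and *Cdkn1a*, and the interval of *Gmnn*, from -6.24 to -0.13, is the one that leaves out 0.

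Of the 42 genes, 33 had an upstream sequence in the RefSeq table for GRCm38.p6, and the 250 bases before the start were searched on both strands for letters known from cell cycle promoters. These were CCAAT, bound by NF-Y, TTTGAA and TTTAAA, the cell cycle homology region (CHR) bound by MuvB complexes, and TTTGGCGC, TTTCGCGC, and TTTCCCGC, forms of the E2F site. CCAAT stood before 13 of 14 mitotic genes (92.9%), 9 of 12 replication genes (75%), and 1 of 5 G1 genes, against 34.5% of the 27025 genes in the table and 36.2% of the 9644 tested genes that matched. At least 2 copies stood before 9 mitotic genes (64.3%), against 10.5% of all genes. CHR letters were found before 10 mitotic genes (71.4%) and 3 replication genes (25.0%), with 25.5% over all genes and 17.4% over the tested genes. E2F letters were found before 4 replication genes (33.3%, *Mcm5*, *Mcm6*, *Mcm7*, and *Cdc6*) and 1 mitotic gene (*Cdk1*), with 1.59% over all genes and 2.997% over the tested genes. A match describes letters, not a bound site.

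**Figure D3:**
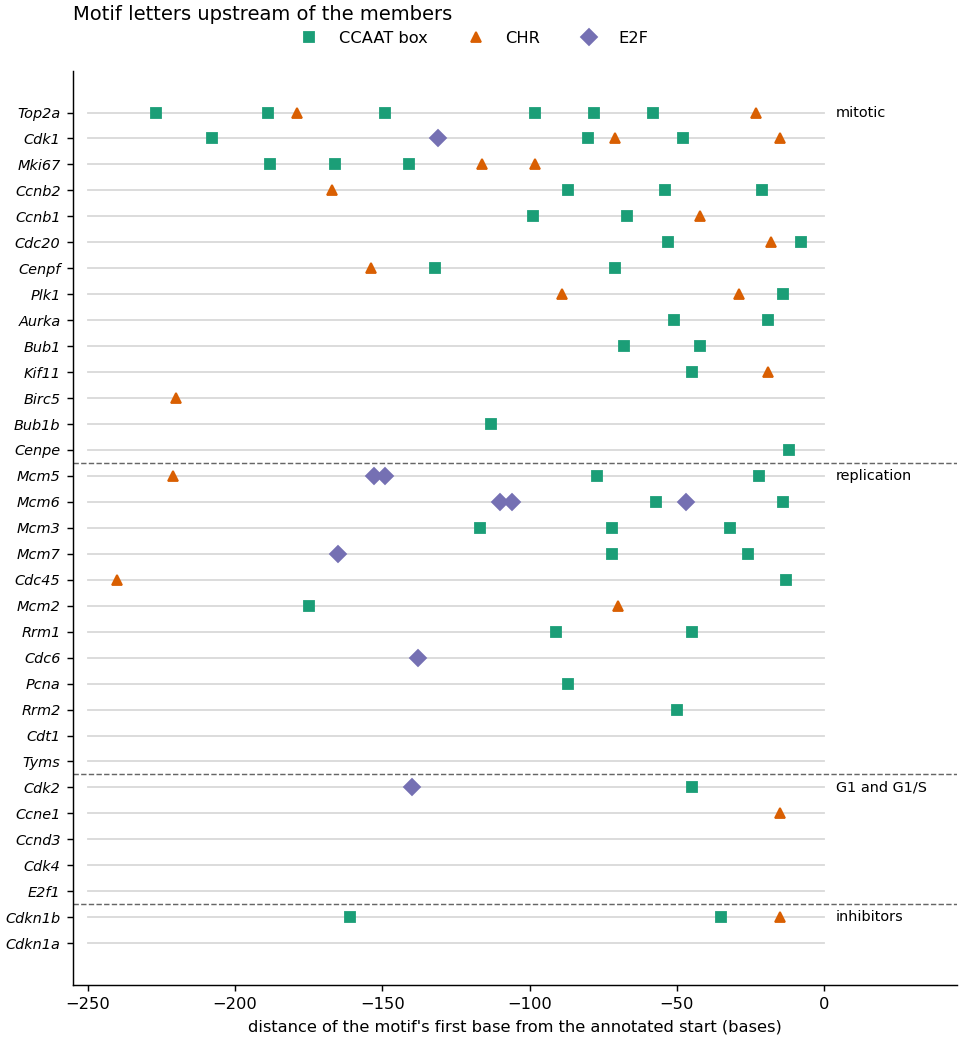
Position of the motif letters in the 250 bases upstream of 33 genes, as the distance of the first base of the motif from the annotated start (bases), one line per gene, ordered by role and by the number of matches. Squares (CCAAT) stand before 13 of 14 mitotic genes, triangles (CHR) before 10 of them, and diamonds (E2F) before 4 of 12 replication genes.

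The D cyclins, which pair with *Cdk4* to start the passage through G1, were led by *Ccnd2* and *Ccnd3*. *Ccnd2* was at 55.0, 61.1, and 34.7 FPKM in WT and 47.3, 48.0, and 58.6 FPKM in KO, and *Ccnd3* at 43.9, 45.7, and 31.8 FPKM in WT and 46.7, 42.5, and 38.2 FPKM in KO. Both overlapped between the groups, with WT 2 lowest. The catalytic partner *Cdk4* was at 59.0, 71.4, and 65.2 FPKM in WT and 63.2, 50.2, and 74.7 FPKM in KO. The log2 fold changes of these genes were 0.06, 0.08, and -0.07, with standard errors of 0.24, 0.20, and 0.19.

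*Ccnd1*, a D cyclin induced by growth factors, had the largest log2 fold change of the G1 genes. It lies on chromosome 7 of GRCm38 from 144929931 to 144939925 and was at 7.07, 9.37, and 8.47 FPKM in WT and 6.999, 25.1, and 30.3 FPKM in KO. KO 1 and KO 2 were high, whereas KO 0 was the lowest of the 6 libraries, so that the groups overlapped. Its log2 fold change was 1.07 (standard error 0.53, 95% interval -0.17 to 2.32, adjusted p = 0.624 from limma). Without KO 0 the log2 fold change was 1.73, without KO 2 it was 0.68, and the adjusted p remained above the threshold in both (0.451 and 0.843). *Ccnd1* made up 6.67%, 8.06%, and 11.3% of the summed FPKM of the 3 D cyclins in WT and 6.93%, 21.7%, and 23.8% in KO.

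The libraries with high *Ccnd1* were also those with the most transcripts of Schwann cells, the glia of peripheral nerves. The summed FPKM of 10 Schwann cell markers was 16.9, 20.6, and 40.3 in WT and 49.5, 113, and 180 in KO. Of the 10 markers, 9 had a positive log2 fold change and 4 were higher in KO without overlap, against 8.21% of all genes tested. Other cell types were highest in KO 1 and KO 2 as well. The summed FPKM of 9 neuron markers was 13.7, 8.05, and 23.1 in WT and 42.2, 49.6, and 61.2 in KO, and that of 8 endothelial markers was 349, 323, and 465 in WT and 374, 590, and 527 in KO. Of the neuron markers 6 were tested, all 6 with a positive log2 fold change and 3 higher without overlap, against the same 8.21%. The part of these cells in the level of *Ccnd1* was not tested.

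**Figure D4:**
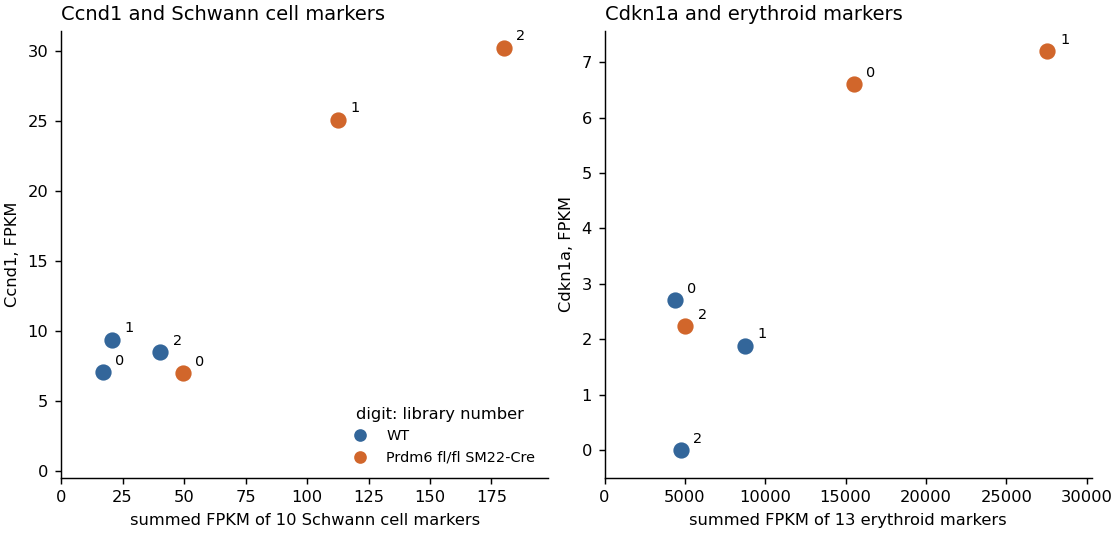
Left, FPKM of *Ccnd1* against the summed FPKM of 10 Schwann cell markers, and right, FPKM of *Cdkn1a* against the summed FPKM of 13 erythroid markers, 1 point per library (WT blue, *Prdm6 fl/fl SM22-Cre* orange, digits give the library number). *Ccnd1* is at 25.1 and 30.3 FPKM in the libraries with Schwann cell sums of 113 and 180, and *Cdkn1a* at 6.61 and 7.20 FPKM in those with erythroid sums of 15502 and 27555.

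The E cyclins and *Cdk2*, which start replication, had groups that overlapped. *Ccne1* was at 3.55, 9.40, and 18.2 FPKM in WT and 5.13, 9.15, and 11.2 FPKM in KO, with both extremes in WT. *Ccne2* lay between 14.0 and 18.2 FPKM in all 6 libraries, and *Cdk2* between 22.4 and 37.5 FPKM. *E2f1*, which encodes an activator of S phase genes, was at 6.54, 9.14, and 3.47 FPKM in WT and 6.47, 9.05, and 7.55 FPKM in KO, and 3.47 FPKM in WT 2 was its lowest value. Of the 8 G1 genes, 5 had a positive and 3 a negative log2 fold change (median 0.072). The stretch upstream of *Cdk2* is shown because it held the most motif letters among the G1 genes (capitals: TTTCCCGC on the reverse strand at -140 and CCAAT at -45). It spans chr10:128705082-128705201 on the minus strand of GRCm38.p6.
Cdk2: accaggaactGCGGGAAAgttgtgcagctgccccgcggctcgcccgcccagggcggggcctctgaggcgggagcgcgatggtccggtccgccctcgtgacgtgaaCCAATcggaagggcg

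Both CDK inhibitors had a positive log2 fold change and neither passed the test. *Cdkn1a* encodes p21, which blocks CDKs downstream of p53, and is found on chromosome 17 from 29090976 to 29100727. Its values were 2.71, 1.88, and 0 FPKM in WT and 6.61, 7.20, and 2.23 FPKM in KO. KO 0 and KO 1 were above all WT libraries, and KO 2 lay between WT 0 and WT 1. The log2 fold change was 2.56 (standard error 1.32, 95% interval -0.52 to 5.64, adjusted p = 0.639 from limma) and rested in part on WT 2, where the gene was listed at 0, as it was 1.04 without that library.

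KO 0 and KO 1 were also the libraries with the most erythroid transcripts. The summed FPKM of 13 erythroid markers was 4366, 8755, and 4749 in WT and 15502, 27555, and 5002 in KO, most of it from *Hba-a1*, which encodes α-globin. Of 15 markers sought, 13 were in the table, and 2 of these (*Hba-a2* and *Hbb-bh1*) were at 0 in all 6 libraries. Of the 9 tested, 2 were higher in KO without overlap, against 8.21% of all genes tested. The part of blood cells in the level of *Cdkn1a* was not tested. Of 16 other genes known as targets of p53, 13 were tested. Of these, 5 had a positive and 8 a negative log2 fold change, 0 had an unadjusted p under 0.05, and the median was -0.10.

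*Cdkn1b*, which encodes p27, was at 15.9, 18.7, and 12.1 FPKM in WT and 16.3, 25.1, and 18.8 FPKM in KO. The groups overlapped, and the log2 fold change was 0.36 (standard error 0.27, adjusted p = 0.706 from limma). Its upstream stretch is shown as the inhibitor with the most matches, with CCAAT at -161 and -35 and TTTAAA at -15 in capitals, the last being the same on both strands (chr6:134920230-134920400, plus strand, GRCm38.p6).
Cdkn1b: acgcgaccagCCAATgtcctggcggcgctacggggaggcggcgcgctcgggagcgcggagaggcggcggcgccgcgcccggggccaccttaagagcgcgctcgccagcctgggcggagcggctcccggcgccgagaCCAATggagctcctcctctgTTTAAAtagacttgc

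The replication genes overlapped between WT and KO for 13 of the 14 genes, the helicase subunits among them. *Mcm2*, *Mcm3*, *Mcm4*, *Mcm5*, *Mcm6*, and *Mcm7* encode the 6 subunits of the helicase ring. Their summed FPKM was 213, 230, and 223 in WT and 232, 186, and 223 in KO, so that the groups overlapped and KO 1 was lowest. Within a library the most abundant subunit was between 2.10 and 3.24 times the least abundant, which was *Mcm5* in 5 libraries and *Mcm3* in KO 0. The log2 fold changes ran from -0.36 for *Mcm3* (standard error 0.25) to 0.20 for *Mcm4* (standard error 0.21).

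*Mcm3* had its spread in WT, at 27.8, 36.8, and 52.1 FPKM, and was at 28.6, 30.2, and 29.4 FPKM in KO. *Mcm4* was at 33.9, 39.4, and 25.1 FPKM in WT and 39.6, 34.6, and 36.9 FPKM in KO. *Mcm6* was at 55.6, 53.6, and 45.4 FPKM in WT and 42.8, 42.2, and 50.4 FPKM in KO, with KO 2 inside the WT range. *Mcm2*, *Mcm5*, and *Mcm7* lay between 22.9 and 30.1, 16.96 and 29.7, and 38.1 and 61.6 FPKM over the 6 libraries. The stretches upstream of *Mcm5* and *Mcm6* are shown because they held the most motif letters of the replication genes, and in both the letters TTTCGCGC and TTTGGCGC overlap on opposite strands in 1 run of capitals. Other capitals mark CCAAT, which reads ATTGG from the opposite strand, 1 copy of TTTAAA before *Mcm5*, and a further TTTGGCGC at -47 before *Mcm6*. They span chr8:75109278-75109501 on the plus strand and chr1:128359706-128359825 on the minus strand of GRCm38.p6.
Mcm5: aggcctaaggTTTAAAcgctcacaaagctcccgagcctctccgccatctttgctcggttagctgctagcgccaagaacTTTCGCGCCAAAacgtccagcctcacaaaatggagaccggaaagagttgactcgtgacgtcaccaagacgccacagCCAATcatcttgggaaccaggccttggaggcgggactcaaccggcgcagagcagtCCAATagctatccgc
Mcm6: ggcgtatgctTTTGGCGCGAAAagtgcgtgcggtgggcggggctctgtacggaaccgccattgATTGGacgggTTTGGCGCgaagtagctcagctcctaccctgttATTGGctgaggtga

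*Gmnn* was the gene with the largest difference. It encodes geminin, which binds *Cdt1* from S phase to mitosis so that DNA is licensed for replication only once per cycle, and its gene spans chromosome 13 from 24751845 to 24761923. The level was 10.2, 10.2, and 5.70 FPKM in WT and 1.76, 0, and 4.34 FPKM in KO. All 3 KO libraries were below all 3 WT libraries. The mean was 8.71 ± 2.60 FPKM in WT and 2.03 ± 2.18 FPKM in KO (SD, n = 3 each). The log2 fold change was -3.18 (standard error 1.31, 95% interval -6.24 to -0.13, unadjusted p = 0.0432, adjusted p = 0.591 from limma), and the two-sided exact permutation p was 0.1, the smallest that 6 libraries in 2 groups of 3 allow.

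The size of this difference rested on KO 1, where *Gmnn* was listed at 0. Without KO 1 the log2 fold change was -1.57, and without KO 2 it was -4.30. With a pseudocount of 1 in place of 0.1 it was -1.95, and with 0.01 it was -4.31. The unadjusted p was under 0.05 without KO 1 and without KO 2, and not when WT 0, WT 1, WT 2, or KO 0 was left out. The summed SMC markers given above were lower in KO as well, and their part in the level of *Gmnn* was not tested. *Cdt1*, the licensing factor that geminin inhibits, was at 9.06, 10.3, and 4.27 FPKM in WT and 3.97, 8.16, and 12.5 FPKM in KO (log2 fold change 0.01, standard error 0.53). The ratio of *Cdt1* to *Gmnn* in FPKM was 0.886, 1.01, and 0.750 in WT, against 2.25 in KO 0 and 2.89 in KO 2, and has no value in KO 1. This ratio contains the low *Gmnn* values given above and is not a separate result. *Cdc6*, which loads the helicase together with *Cdt1*, was at 6.66, 3.95, and 7.61 FPKM in WT and 5.04, 3.46, and 5.20 FPKM in KO.

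The remaining replication genes act at the fork or supply nucleotides. *Pcna*, the sliding clamp of the DNA polymerases, was at 64.6, 87.8, and 82.8 FPKM in WT and 85.9, 88.4, and 101 FPKM in KO (log2 fold change 0.23, standard error 0.18). The groups overlapped, with WT 0 lowest and KO 2 highest, but did not overlap with quantile normalization, where the log2 fold change was 0.38. *Cdc45*, which activates the helicase, was at 16.2, 12.4, and 26.8 FPKM in WT and 20.1, 14.6, and 10.3 FPKM in KO. *Rrm1* and *Rrm2* encode the subunits of ribonucleotide reductase, which makes deoxyribonucleotides. *Rrm1* lay between 46.9 and 59.7 FPKM over the 6 libraries and *Rrm2* between 15.8 and 27.3 FPKM, with log2 fold changes of -0.02 for each. *Tyms*, which encodes thymidylate synthase, lay between 22.8 and 31.7 FPKM. Over the 14 genes the log2 fold change was positive for 6 and negative for 8, with a median of -0.018. Relative to the median of all genes it was -0.090, which turned to 0.017 with quantile normalization and was -0.20 without WT 1 and KO 2.

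Of the 18 mitotic genes, 15 had a positive and 3 a negative log2 fold change, with a median of 0.072, the same as that of all genes tested. Relative to all genes the median was 0.156 with quantile normalization, and lay between -0.045 without KO 0 and 0.188 without KO 1 when single libraries were left out. *Top2a*, the topoisomerase that untangles sister chromatids, was the second most abundant, at 156, 130, and 88.6 FPKM in WT and 155, 128, and 140 FPKM in KO. WT 2 was low, and the other 5 libraries lay between 128 and 156 FPKM (log2 fold change 0.21, standard error 0.23, adjusted p = 0.779 from limma). *Cdk1*, the kinase that drives entry into mitosis, was at 35.3, 28.8, and 18.3 FPKM in WT and 39.7, 17.4, and 28.3 FPKM in KO (log2 fold change 0.02, standard error 0.36). Their upstream stretches are shown because they held the most motif letters of the mitotic genes: 6 copies of CCAAT and 2 of TTTGAA before *Top2a*, and 3 of CCAAT, 2 of TTTGAA, and 1 TTTCGCGC before *Cdk1* (capitals, with matches of the opposite strand printed as they read here). They span chr11:99024197-99024426 and chr10:69352913-69353130, both on the minus strand of GRCm38.p6.
Top2a: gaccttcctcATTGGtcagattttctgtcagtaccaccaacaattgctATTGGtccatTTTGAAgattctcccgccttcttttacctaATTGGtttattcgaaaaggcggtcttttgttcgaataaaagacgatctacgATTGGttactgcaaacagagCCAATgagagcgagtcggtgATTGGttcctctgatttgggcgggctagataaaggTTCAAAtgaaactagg
Cdk1: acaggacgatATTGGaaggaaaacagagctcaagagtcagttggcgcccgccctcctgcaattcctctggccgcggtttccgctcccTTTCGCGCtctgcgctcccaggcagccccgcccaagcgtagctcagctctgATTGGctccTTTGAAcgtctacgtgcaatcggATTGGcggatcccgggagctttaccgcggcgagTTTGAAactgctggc

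The cyclins that pair with *Cdk1* overlapped between the groups as well. *Ccnb1* was at 38.0, 34.1, and 10.9 FPKM in WT and 45.01, 27.6, and 33.1 FPKM in KO. *Ccnb2* was at 21.8, 26.0, and 22.0 FPKM in WT and 27.2, 15.7, and 30.6 FPKM in KO. *Ccna2*, the A cyclin of S phase and G2, was at 49.7, 45.1, and 42.1 FPKM in WT and 66.1, 39.6, and 42.02 FPKM in KO. KO 0 was the highest library for *Ccnb1* and *Ccna2*, and the log2 fold changes were 0.51, 0.02, and 0.07. *Foxm1*, which encodes an activator of the mitotic genes, was at 9.28, 20.6, and 13.2 FPKM in WT and 16.0, 11.8, and 14.8 FPKM in KO, with all KO values inside the WT range. *Cdc20*, which activates the anaphase-promoting complex, was at 26.8, 27.4, and 13.2 FPKM in WT and 21.5, 14.7, and 20.5 FPKM in KO, also inside the WT range.

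Kinases of mitosis and the spindle checkpoint came next. *Bub1*, a checkpoint kinase at the kinetochore, lies on chromosome 2 from 127801122 to 127831865 and was at 5.39, 6.54, and 6.29 FPKM in WT and 10.6, 6.64, and 10.1 FPKM in KO. Each KO library was above each WT library, with KO 1 close to WT 1. The log2 fold change was 0.55 (standard error 0.33, 95% interval -0.22 to 1.32, adjusted p = 0.670 from limma), and with quantile normalization the groups overlapped. Its partner *Bub1b* was at 30.7, 29.6, and 15.8 FPKM in WT and 27.4, 24.3, and 25.0 FPKM in KO, with a log2 fold change of 0.07.

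*Aurkb*, the kinase that corrects faulty spindle attachments, had the largest positive log2 fold change of the mitotic genes at 0.64 (standard error 0.49, 95% interval -0.50 to 1.79). It was at 12.5, 14.7, and 3.89 FPKM in WT and 14.5, 12.5, and 15.3 FPKM in KO, and WT 2 was the low library, with the other 5 between 12.5 and 15.3 FPKM. *Aurka*, which acts at the spindle poles, was at 7.26, 13.5, and 23.0 FPKM in WT and 24.2, 14.9, and 15.7 FPKM in KO. *Plk1*, a kinase with roles from mitotic entry to exit, lay between 13.2 and 15.8 FPKM in WT and between 15.4 and 21.3 FPKM in KO (log2 fold change 0.28, standard error 0.23). *Birc5*, which encodes survivin, a partner of Aurora B, lay between 55.9 and 58.8 FPKM in WT and between 52.1 and 72.6 FPKM in KO.

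Kinesins move chromosomes and spindle poles along microtubules. *Kif11*, the motor that separates the spindle poles, was at 53.3, 46.9, and 30.9 FPKM in WT and 59.9, 47.8, and 51.4 FPKM in KO (log2 fold change 0.31, standard error 0.24). *Kif20a*, a motor of the midbody, had the most negative log2 fold change of the mitotic genes, -0.40 (standard error 0.30), at 39.4, 23.1, and 31.8 FPKM in WT and 33.6, 17.8, and 21.2 FPKM in KO. Both overlapped between the groups. *Cenpe*, the kinetochore motor, had a level between 25.2 and 28.6 FPKM over the 6 libraries, and *Cenpf* lay between 23.7 and 34.2 FPKM.

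Single libraries set much of the spread. WT 2 was the lowest of the 6 libraries for 16 of the 42 genes (38.1%) and for 8 of the 18 mitotic genes, although WT 2 was also the lowest for 32.0% of all genes tested. KO 1 was the lowest for 13 of the 42 (31.0%), against 13.1% of all genes, and KO 0 the highest for 14 (33.3%), against 17.2%, with 9 of these mitotic. The mitotic score of a library, the median over its 18 genes of the log2 deviation from the mean of the gene, was 0.12, 0.07, and -0.26 in WT and 0.33, -0.14, and 0.09 in KO. The replication score was 0.02, 0.06, and 0.06 in WT and 0.07, -0.15, and 0.07 in KO. Both scores overlapped between WT and KO. The summed FPKM of the mitotic genes was 1.88, 1.74, and 1.28 times that of the replication genes in WT and 1.97, 1.65, and 1.73 times in KO.

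**Figure D5:**
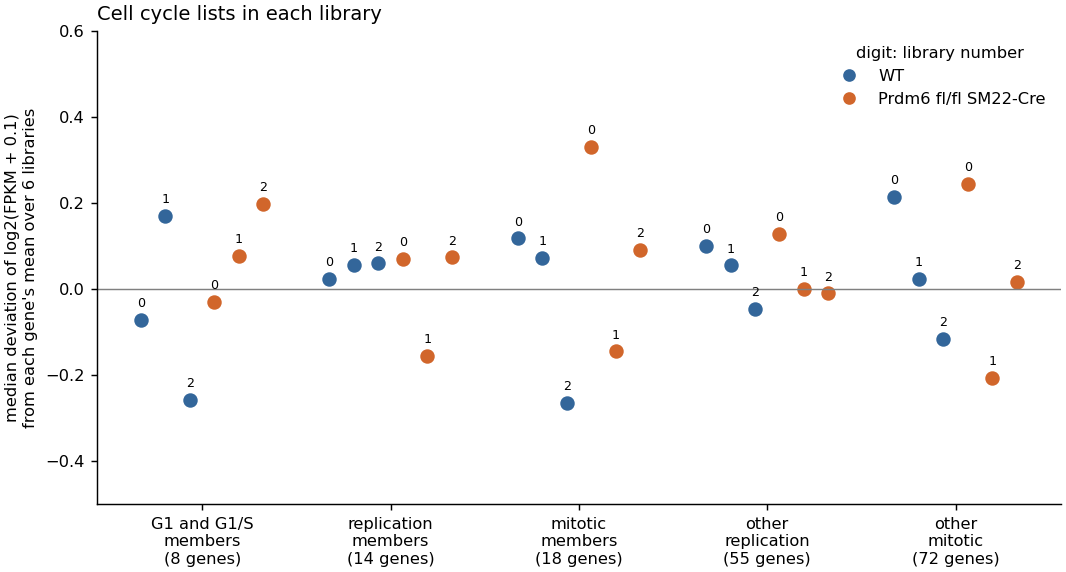
Median deviation of log2(FPKM + 0.1) from the mean of each gene over the 6 libraries, for 3 roles among the 42 genes and for lists of 55 other replication genes and 72 other mitotic genes, 1 point per library (WT blue, *Prdm6 fl/fl SM22-Cre* orange, digits give the library number). In each list the WT and *Prdm6 fl/fl SM22-Cre* points overlap, with the mitotic score highest in library 0 of the latter at 0.33 and lowest in WT 2 at -0.26.

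Other genes of the same pathways, listed by function, were examined beside the 42. Of 55 further replication genes, all tested, 24 had a positive and 31 a negative log2 fold change (median -0.039). Before adjustment 2 passed as higher and 1 as lower, and 0 passed after it, with a lowest adjusted p of 0.574 in limma. The share before adjustment was 5.45%, against 8.28% of all genes. The groups did not overlap for 4 genes (7.27%, against 16.1% of all genes), which were *Orc4*, a subunit of the origin recognition complex (log2 fold change 0.71), *Pola1*, the catalytic subunit of DNA polymerase α (0.58), *Rfc3*, a subunit of the clamp loader (-0.92), and *Slbp*, which binds histone mRNA (-0.39). *Rfc3* was at 21.4, 29.3, and 25.2 FPKM in WT and 19.9, 8.19, and 14.1 FPKM in KO.

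Of 72 further mitotic genes, all tested, 31 had a positive and 41 a negative log2 fold change, with a median of -0.10. Relative to all genes the median was -0.171, and it was 0.0058 without KO 1, -0.040 without WT 0, -0.287 without KO 0, and -0.038 with quantile normalization. Before adjustment 2 passed as higher and 2 as lower (5.56%, against 8.28% of all genes), with 0 after it. The groups did not overlap for 8 of them, 2 higher and 6 lower in KO (11.1%, against 16.1% of all genes). *Hmgb2*, a chromatin protein abundant in dividing cells, was at 201, 134, and 186 FPKM in WT and 95.5, 114, and 104 FPKM in KO. Each KO library was below each WT library (log2 fold change -0.71, standard error 0.19, adjusted p = 0.501 from limma). *Ube2c*, the ubiquitin-conjugating enzyme of the anaphase-promoting complex, was at 8.72, 14.5, and 21.2 FPKM in WT and 6.19, 6.58, and 1.1 FPKM in KO (log2 fold change -1.92, standard error 0.71). *Nek2*, a centrosomal kinase, had a log2 fold change of -0.57. In the other direction, the kinesin *Kif18a* was at 6.44, 6.19, and 2.56 FPKM in WT and 9.81, 13.3, and 9.84 FPKM in KO (log2 fold change 1.20), and *Hmmr*, a spindle protein, had a log2 fold change of 0.70. The genes without overlap thus went both ways, with 6 lower and 2 higher among the 72. Their share over both directions was below that of all genes tested, where 7.84% were lower and 8.21% higher without overlap. The shortfall lay among the higher genes and not among the lower ones.

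Of 39 further regulators of the cell cycle, 37 were tested, 20 with a positive and 17 with a negative log2 fold change (median 0.008). Before adjustment 3 passed as higher and 0 as lower (8.11%, against 8.28% of all genes), and 0 passed after it (lowest adjusted p = 0.502 in limma). The groups did not overlap for 5 that were higher and 2 that were lower in KO (18.9%, against 16.1% of all genes). *E2f2*, an activator E2F, was at 2.78, 5.35, and 4.46 FPKM in WT and 12.1, 14.7, and 6.04 FPKM in KO, and was highest in KO 0 and KO 1, the libraries with the most erythroid transcripts, whose part was not tested. *Lin9*, a subunit of MuvB, was at 5.22, 4.74, and 6.50 FPKM in WT and 19.3, 9.82, and 8.83 FPKM in KO. The log2 fold changes were 1.32 (standard error 0.46) and 1.11 (standard error 0.39). *Rb1*, which encodes the retinoblastoma protein, was at 2.93, 4.201, and 5.31 FPKM in WT and 8.996, 5.71, and 7.75 FPKM in KO (log2 fold change 0.85, standard error 0.41). Before adjustment *E2f2* and *Lin9* passed, and *Rb1* did not (unadjusted p = 0.0709 from limma). The gene with the lowest adjusted p is not among those named, which were chosen by the size of their change. *Mybl2*, which encodes B-Myb, and *Cdc25a*, a phosphatase that activates CDKs, were lower in each KO library than in any WT library, with log2 fold changes of -0.74 and -0.39.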

How the data were processed

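RNA-Seq of the DA at E17.5 was deposited by the authors as FPKM values, 1 per gene and library, made from trimmed reads aligned to mm10 with TopHat2 and quantified with Cufflinks. Tool versions and the gene annotation are not given in the sources used here. Libraries were grouped and numbered by their titles, and 0 columns were left unmatched. Genes whose mean over the 6 libraries reached 1 FPKM were compared on log2(FPKM + 0.1) with limma 3.58.1 in R 4.3.3. The settings were eBayes with trend, two-sided tests, Benjamini-Hochberg adjustment over all genes tested, and a threshold of 0.05. A run on simulated data was required only to recover the median size of changes put in. Its values were independent and normally distributed, unlike values listed at 0, so it does not give the error rates for these data. Cuffdiff needs the reads and was not repeated. FPKM holds no counts, so no counting interval was computed.

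Positions are from GENCODE vM21 (GRCm38), and upstream sequences from RefSeq. The 42 genes, the other lists, and the tests were chosen with earlier results of these data known. All 42 genes are named. Of each other list, at most 3 genes per direction are named, those with the largest change among genes whose groups did not overlap. Alternatives changed the pseudocount, filter, scaling, variance trend, replicate block, and libraries. The fit without WT 1 and KO 2 was chosen after seeing the data. Single Schwann cell markers are not reported here.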

Additional observations from a re-analysis of the deposited data

How the results depend on the processing

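Of the 42 genes, 0 had an adjusted p under 0.05 in limma in any of 15 alternatives, with a lowest value of 0.451 (*Ccnd1* without KO 0). The sign of the log2 fold change held in all alternatives for 18 genes, including *Ccnd1*, *Gmnn*, *Bub1*, and *Cdkn1a*, although *Cdkn1a* dropped out under a minimum mean of 5 FPKM. The other 24 genes changed sign in at least 1 alternative, 15 of them without WT 2. The number of the 42 with an unadjusted p under 0.05, 1 as reported, was 0 with a pseudocount of 0.01, with a minimum mean of 5 FPKM, without the variance trend, and without WT 1 and KO 2, the libraries highest in heart muscle transcripts. It lay between 0 and 1 when single libraries were left out, at 0 without WT 1 or WT 2, and the gene was *Mcm3* without WT 0 and *Ccnd1* without KO 0. With a replicate block it was 3 (*Ccnd1*, *Cdkn1a*, and *Gmnn*). Whether the numbers pair the libraries is not given. The deviations of same-numbered libraries correlated at 0.12, -0.08, and -0.009, and those of differently numbered libraries between -0.12 and 0.14. The first lay inside the range of the second, which does not show pairing and cannot exclude it. Over all genes tested, the number called, 1, was 2 without the trend and 2 without WT 1 and KO 2, and lay between 1 and 2 when single libraries were left out, at 2 without WT 1 or KO 2. Fewer libraries make non-overlap more frequent by construction. With any single library left out, 1 to 5 of the 42 were lower and 2 to 6 higher without overlap, where 24.0% to 28.9% of all genes did not overlap, and 3 and 7 without WT 1 and KO 2, where 38.0% of all genes did not overlap. The median of the replication genes minus that of all genes was -0.090, and became 0.017 with quantile normalization and -0.20 without WT 1 and KO 2. That of the 55 other replication genes was -0.11, and became -0.0053 without WT 1 and KO 2 and lay between -0.126 and -0.030 when single libraries were left out, the latter without KO 1. The median of the mitotic genes minus that of all genes lay between -0.045 and 0.188 when single libraries were left out, and that of the 72 other mitotic genes between -0.287 and 0.0058. The cause of these shifts was not tested. The depth of the libraries is unknown, and with 3 libraries per group small changes of single genes lie within their intervals.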
